A study of Drosophila melanogaster with 3 samples.

Results

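The sites described here were among the kept, best-ranked regions of 1 replicate of a chromatin immunoprecipitation (ChIP-seq) experiment and not of the other two. They were 1126 regions of biological replicate 3, out of 3922 of its regions kept for comparison (28.7%) and out of 11766 kept over all 3 replicates. To find them, the regions of each replicate were ranked by the authors' signal value and the best 3922, as many as the authors' final list holds, were kept per replicate. A kept region of replicate 3 was a member where no kept summit of replicate 1 or 2 lay within 150 bp of its own summit. They are called replicate 3 only sites below, and are set beside the 2209 kept regions of replicate 3 with a kept summit of both other replicates within 150 bp (56.3%), called shared sites. A further 587 kept regions (15.0%) had a kept summit of 1 other replicate nearby.

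The experiment used whole Drosophila melanogaster embryos of both sexes together, aged 0 to 10 h, from a single transgenic line that stably expresses CG16815 with enhanced green fluorescent protein at its C terminus. An anti-GFP antibody served for the precipitation. The labels give the modification as an insertion that targets CG16815 and do not state the promoter that drives the fusion. All 3 biological replicates belong to that 1 group and no second condition was analysed here, so the comparison is between replicates and between classes of sites within replicate 3. Whole embryos mix all cell types, so a site used in few cells and a weak site in many cells cannot be told apart.

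CG16815 is an uncharacterised fly gene, and no DNA sequence is known here as its target. In ChIP-seq, DNA bound by the precipitated protein is enriched among the sequenced fragments, and a peak caller reports regions with a summit where the enrichment is highest. Active promoters are open chromatin, recovered in many such experiments, and the promoters of ribosomal protein genes are among the most heavily transcribed in a growing embryo. In flies these promoters often carry a pyrimidine-rich initiator and, at many of them, the DNA replication-related element (DRE) bound by the factor Dref.

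The sequences at the strongest replicate 3 only sites are printed because the sites differed in base composition from shared sites. Each is the dm6 plus strand from RefSeq, 5′ to 3′, over 101 bp centred on the summit of replicate 3, and capitals mark matches, on either strand, to 1 of the 14 motifs searched. The 5 strongest members outside an arm left out of sequence display lay in introns:
kirre, chrX:2985356-2985456: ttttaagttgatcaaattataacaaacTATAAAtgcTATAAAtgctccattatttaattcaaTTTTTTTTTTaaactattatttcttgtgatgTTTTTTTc
pros, chr3R:11368855-11368955: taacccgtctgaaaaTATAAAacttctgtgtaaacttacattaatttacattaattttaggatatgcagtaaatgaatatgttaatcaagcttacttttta
JIL-1, chr3L:11090024-11090124: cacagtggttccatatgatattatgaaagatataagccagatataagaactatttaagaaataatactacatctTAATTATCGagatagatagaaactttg
vn, chr3L:5824204-5824304: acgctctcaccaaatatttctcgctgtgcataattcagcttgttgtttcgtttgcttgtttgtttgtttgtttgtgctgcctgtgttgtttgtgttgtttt
nyo, chr3R:31551123-31551223: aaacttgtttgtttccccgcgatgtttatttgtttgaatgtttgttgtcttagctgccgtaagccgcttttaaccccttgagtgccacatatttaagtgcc
The kirre window held TATAAA and runs of T, the pros window TATAAA, and the JIL-1 window TAATTA and the pentamer CGATA read on the minus strand, while none of the 14 motifs was found at vn or nyo. The G+C content was 17.8% at kirre and 23.8% at pros, against 41.6% at nyo. The 3 strongest shared sites outside the same arm, shown for comparison, ranked 2, 3 and 4 in replicate 3:
ush, chr2L:481026-481126: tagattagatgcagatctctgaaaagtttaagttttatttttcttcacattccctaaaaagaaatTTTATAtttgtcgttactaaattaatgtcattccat
ph-p, chrX:2137288-2137388: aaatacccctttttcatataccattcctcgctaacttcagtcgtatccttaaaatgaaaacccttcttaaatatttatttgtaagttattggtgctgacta
CG14100, chr3L:19590562-19590662: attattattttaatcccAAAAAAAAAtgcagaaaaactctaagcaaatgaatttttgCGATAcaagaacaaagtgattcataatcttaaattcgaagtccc
Their G+C content was 24.8%, 31.7% and 26.7%. Of the replicate 3 only sites at ribosomal protein genes, the 2 best-ranked ones outside that arm whose window lies upstream of the transcription start site (TSS) are shown because that gene group stood out below, and were chosen after their values were seen:
RpS14a, chrX:7933580-7933680: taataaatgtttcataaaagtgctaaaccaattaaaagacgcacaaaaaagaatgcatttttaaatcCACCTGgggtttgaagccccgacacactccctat
RpL37-1, chrX:15139381-15139481: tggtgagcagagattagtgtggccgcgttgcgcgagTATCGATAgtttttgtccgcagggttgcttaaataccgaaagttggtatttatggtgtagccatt
The RpL37-1 window held the DRE, TATCGATA, and that of RpS14a the E-box CAGGTG read on the minus strand. A match is a description of the letters and not a bound site.

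The values that chose the members are given first, as a description. In replicate 3 their signal ran from 185.8, at rank 178, to 31.1, at rank 3922, with a median of 37.5 at a median rank of 2936. The shared sites had a median signal of 66.2 at a median rank of 1297. The replicate 3 only sites were thus mostly weak regions of their own list: 208 of 1126 (18.5%) stood among the best 1961 ranks, against 1507 of the 2209 shared sites (68.2%). At the limit itself, the last kept region had a signal of 31.07369 and lay 3066 bp from the nearest protein-coding TSS, that of NetB. The first region not kept, at rank 3923, had 31.06885. The closest member was 151 bp from a kept summit of another replicate and the farthest kept region that was no member was 150 bp away.

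**Figure D1:**
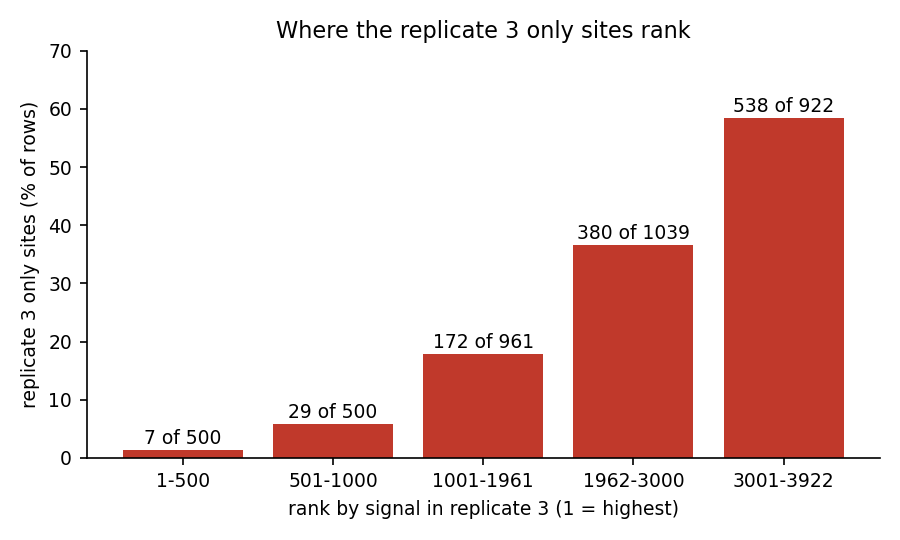
Share of kept regions of replicate 3 that were replicate 3 only sites (vertical axis, percent) by rank of signal in replicate 3 (horizontal axis, 1 is the highest), with the counts above the bars. The share is 1.40% among the best 500 ranks and 58.4% from rank 3001 on.

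The plot of the share by rank shows that 7 of the best 500 regions of replicate 3 were members (1.40%), and 29 of the next 500 (5.80%). From rank 1962 to 3000 the share was 36.6%, and from rank 3001 to 3922 it was 58.4%. The same rule with the replicates exchanged gave 690 replicate 1 only sites (17.6%) and 436 replicate 2 only sites (11.1%), at median ranks of 3306.5 and 3269.5 in their own lists. The replicate 3 only set was therefore the larger, and the one that reached highest in its own list: its best rank was 178, against 754 for replicate 1 only and 646 for replicate 2 only sites.

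Most members were also listed by another replicate, below its kept ranks. In the whole lists, which hold background as well as peaks, 435 of 1126 (38.6%) had a summit of replicate 1 within 150 bp, at a median rank of 9043, and 674 (59.9%) had one of replicate 2, at a median rank of 6325. The regions of replicate 2 found for 362 members had a q under 0.05, and those of replicate 1 for 14. In the whole lists 6640 regions of replicate 2 had such a q, and 4062 of replicate 1, not many more than were kept. A member can be matched only below the kept ranks, so both counts depend on where q passed 0.05 in each list. Together 743 (66.0%) were found in at least 1 of these lists and 366 (32.5%) in both. The other 383 (34.0%) were in neither list. In the list called on the pooled alignments 917 (81.4%) were found, and 171 (15.2%) were in the authors' final list, called passing here. Of the replicate 1 only sites 20.7% were in neither other list and 8.55% were passing. Of the replicate 2 only sites 14.2% were in neither and 45.2% were passing. The lists differ in length (30000, 21989 and 27358 regions for replicates 1, 2 and 3), so these shares depend on where each list ended.

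The distance to the nearest kept summit of replicate 1 or 2 had a median of 6179 bp. It was over 10 kb for 410 members (36.4%), at most 1000 bp for 178 (15.8%) and at most 300 bp for 96 (8.53%). These 96 sites lay beside a site that another replicate kept, with a summit displaced by more than the limit of the rule. The region called was 416 bp wide for 1120 of the 1126 members, and 1826 of the 2209 shared regions had that width. The 6 members of another width were all narrower, and included those in introns at HmgD/HmgZ and kirre, at the promoters of CG42354 and E(spl)m3-HLH, and between genes near CG30114.

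By location, the replicate 3 only sites lay less often at promoters than shared sites and more often between genes. A summit within 500 bp of an annotated TSS was found for 297 of 1126 members (26.4%, 95% interval 23.8 to 29.1), against 1105 of 2209 shared sites (50.02%, 47.9 to 52.1). The difference was -23.6 percentage points (-26.9 to -20.3). Intergenic summits made up 29.2% of members and 14.7% of shared sites, a difference of 14.5 percentage points (11.5 to 17.6). Intronic summits made up 37.2% and 33.1%, which differ by 4.07 points (0.659 to 7.53). Intervals for a share are exact binomial (Clopper-Pearson) and those for a difference are Newcombe's. Both cover counting error over sites only, and with all members from 1 library the spread between libraries is not in them.

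**Figure D2:**
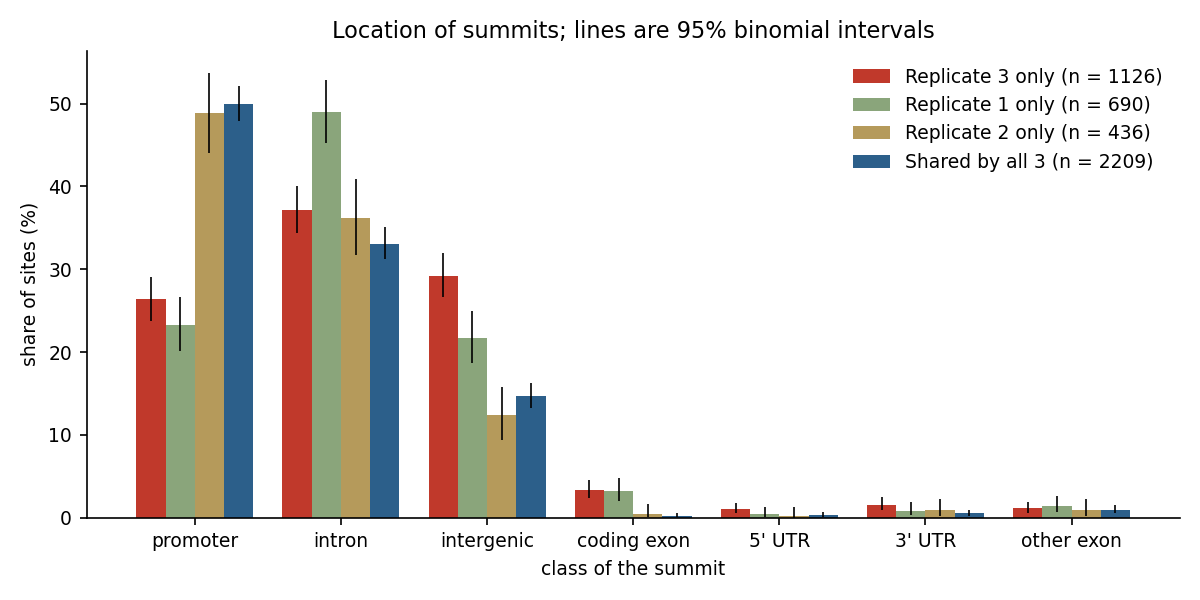
Share of summits (vertical axis, percent) in each annotation class (horizontal axis) for replicate 3 only, replicate 1 only, replicate 2 only and shared sites; lines are exact 95% binomial intervals over sites. Promoter bars stand at 26.4% for replicate 3 only, 23.3% for replicate 1 only, 48.9% for replicate 2 only and 50.02% for shared sites.

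The exchanged sets did not behave alike, as the plot of locations shows. Replicate 1 only sites were at promoters in 23.3% of cases (20.2 to 26.7), with an interval that overlaps that of the members, and in introns in 49.0%. Replicate 2 only sites were at promoters in 48.9% (44.1 to 53.7), close to the shared sites. The promoter share was lower for members at both ends of the ranking: among the best 1961 ranks of replicate 3 it was 22.6% for members and 49.9% for shared sites, and among the remaining ranks 27.2% and 50.3%. Regions of replicate 3 below the kept ranks, which include background, were at promoters in 18.9% of cases. Intergenic summits, 29.2% of members, made up 24.2% of these lower regions. They made up 23.3% of kept regions of replicate 3 with a kept summit of 1 other replicate. For replicate 1 only and replicate 2 only sites the intergenic share was 21.7% and 12.4%.

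Summits in coding exons were few and, for members, nearly all came from the weak end of the list. Coding exons held 38 members (3.37%, 2.40 to 4.60) and 5 shared sites (0.226%, 0.0735 to 0.527). Of these 38, 37 stood below rank 1961, where coding exons held 4.03% of members and none of the 702 shared sites, a count of 0 whose 95% upper bound is 0.524%. Coding exons held 13.4% of the regions of replicate 3 below the kept ranks. Of the 383 members in neither other list 7.83% were in coding exons, against 0.820% of the 366 members found in both. The strongest was within l(3)mbn, at ranks 1603, 4054 and 4920 in replicates 3, 1 and 2. The next ones, chosen by the same order, were within DIP-lambda at rank 2421 and Cont at rank 2504, genes of the immunoglobulin superfamily, and were in neither other list. The 5' UTRs held 1.07% of members and 0.362% of shared sites, and the 3' UTRs 1.60% and 0.543%.

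Where members were at promoters, they sat less strictly upstream than shared sites. The median distance from a summit to the nearest TSS was 2130 bp for members and 499 bp for shared sites. It was 1778 bp for replicate 1 only and 518 bp for replicate 2 only sites. Among the promoter sites, 202 of 297 members (68.0%) and 85.1% of the shared ones had a summit upstream of the TSS. The upstream share was 80.1% for replicate 1 only and 85.9% for replicate 2 only sites. For regions of replicate 3 below the kept ranks it was 53.9%. The median position was -86 bp for members and -137 bp for shared sites. The nearest TSS belonged to a protein-coding gene at 257 of the 297 promoter members (86.5%), to a non-coding RNA at 34, to a small nuclear RNA at 4, to a small nucleolar RNA at 1 and to a pseudogene at 1.

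Of the 25 gene lists examined, that of cytoplasmic ribosomal proteins had the largest share of genes with a replicate 3 only site. Counting genes with a member summit at most 500 bp from one of their TSSs gave 346 of 13968 protein-coding genes (2.48%). Of the 93 cytoplasmic ribosomal protein genes, which encode the subunits of the cytosolic ribosome, 27 (29.0%) had such a site. Shared sites lay at 24 of these 93 genes (25.8%), where 1428 of all protein-coding genes (10.2%) had one. Replicate 1 only sites lay at 2 of the 93 genes, with 1.27% of all protein-coding genes, and replicate 2 only sites at 1, with 2.13% of all. The list was chosen with earlier results of these data known, so these counts are a description. Without replicate 2 in the rule the count was 43 of the 93 genes, and without replicate 1 it was 27.

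The member genes included RpL10Ab, RpL12, RpL15, RpL18, RpL27, RpL29, RpL3, RpL32, RpL34a, RpL35A, RpL36, RpL37-1, RpL37A, RpL5, RpL7A, RpL9, RpLP1, RpLP2, RpS14a, RpS18, RpS23, RpS26, RpS27A, RpS7 and sta, which encodes a small-subunit protein. They include components of both subunits and the stalk proteins RpLP1 and RpLP2. Of the 27 genes 3 had a shared site too, RpL10Ab and RpL32 among them. The summit was upstream of the TSS at 21 of 27 genes, with a median of -64 bp and a range of -316 to 59 bp, and 26 lay within 250 bp of it. At the 21 genes with shared sites alone the median was -58 bp, so both kinds of site lay at a similar position.

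These sites were stronger than most members: 12 of 27 stood among the best 1961 ranks of replicate 3 and their median rank was 2146. RpS14a stood at rank 1023 in replicate 3 and at 17428 in replicate 2, with none in replicate 1. The best region of replicate 2 within 500 bp of a TSS of this gene was at rank 4014, just past the kept ranks. The nearest kept summit of another replicate was 4783 bp from the member. RpS14a has a tandem copy, RpS14b, directly downstream, and the labels and headers do not say how reads that match both were placed. RpL34a stood at rank 1075 in replicate 3 and 13275 in replicate 1, and replicate 2 kept a summit 173 bp away. RpL37-1 stood at rank 1291 in replicate 3 and 4231 in replicate 2, with none in replicate 1. For 18 of the 27 sites a summit of replicate 2 was within 150 bp further down its list, for 7 one of replicate 1, and 7 were in neither. A displaced summit was not the usual case: 6 of 27 had a kept summit of another replicate within 300 bp and 21 had none within 1000 bp. Of the 27, 8 were passing.

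**Figure D3:**
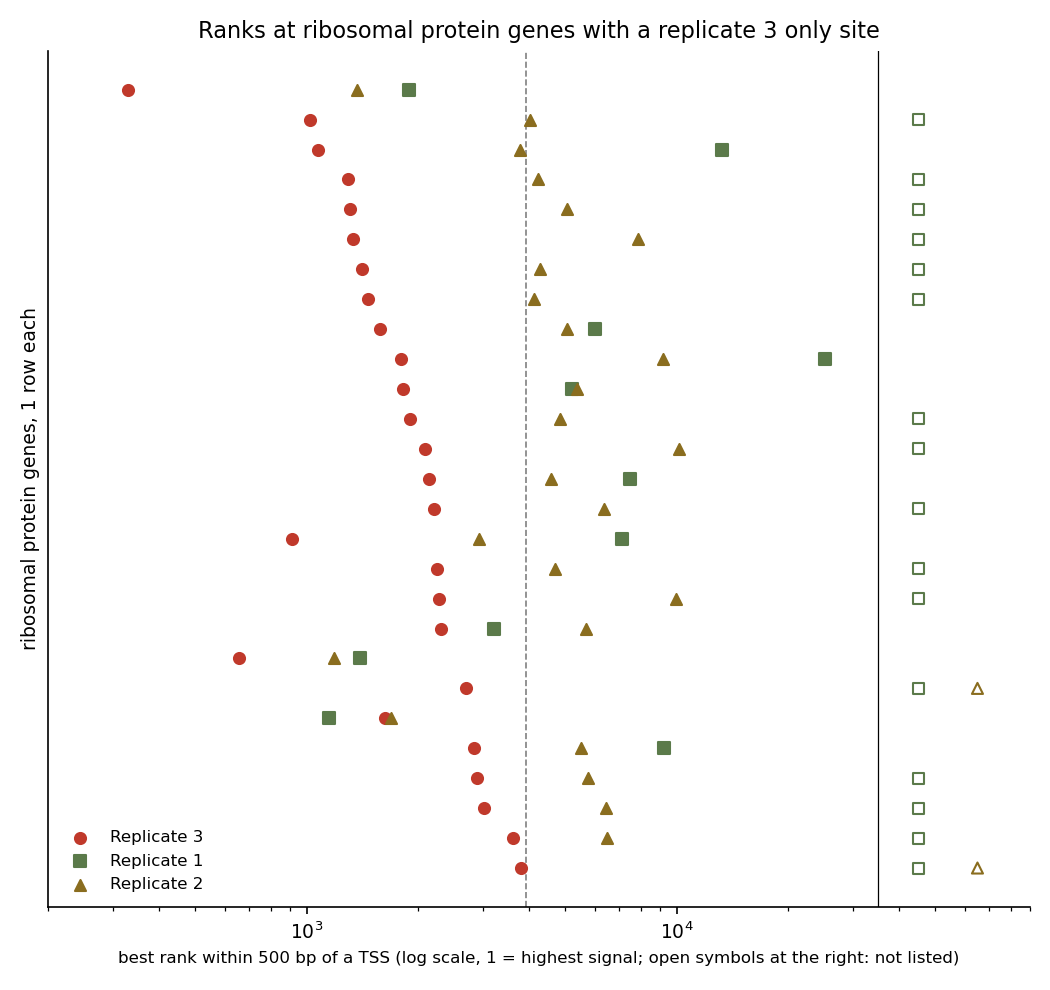
Best rank of any region within 500 bp of a TSS (horizontal axis, log scale, 1 is the highest signal) in replicates 3, 1 and 2 at the 27 ribosomal protein genes with a replicate 3 only site (vertical axis, 1 row per gene, ordered by the rank of that site); the dashed line marks the last kept rank and open symbols on the right stand for no region in that list. At 26 of the 27 genes replicate 3 has the best rank, with RpL10Ab as the exception, an order nearly fixed by how members were chosen, and replicate 1 lists a region at 11.

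The rule selects sites that replicates 1 and 2 ranked below the kept rows, so the whole list was read in the same way. In replicate 3, 63 of the 93 genes had a kept region within 500 bp of a TSS; replicate 1 had one at 28 and replicate 2 at 42. Of the 64 genes with a kept region in any replicate, replicate 3 ranked the promoter best at 60 (93.8%), replicate 1 at 1 and replicate 2 at 3. Over all protein-coding genes with such a region, replicate 3 ranked it best at 785 of 2753 (28.5%). For the 26 mitochondrial ribosomal protein genes it was 5 (19.2%), for the 24 genes of RNA polymerase II and the general factors 5 (20.8%), and for the 13 translation factor genes 6 (46.2%). Shares above that over all protein-coding genes were also found in other lists, among them 15 of 21 genes for small nuclear or nucleolar RNAs (71.4%), 3 of 4 neural markers and 3 of 3 genes of the E(spl) complex. The 64 genes include the 27 member genes, 26 of them ranked best in replicate 3, an order the rule nearly fixes, also in the plot of ranks. No test was made, since 3 libraries of 1 group give no replicate of this contrast, and what distinguishes the libraries was not tested.

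In the other groups with housekeeping roles the share of genes with a member lay on both sides of the 2.48% of all protein-coding genes, and rested on 1 to 4 genes in each. Of 73 mitochondrial ribosomal protein genes 1 (1.37%), mRpL53, had a replicate 3 only site and 13 had a shared site. Of 51 translation factor genes 2 (3.92%), eIF2D and eIF4A, had a member, at ranks 2129 and 2531, and 6 genes had a shared site. Of 63 genes of RNA polymerase II and the general factors 1 (1.59%), Polr2C, which encodes a subunit of the polymerase, had a member and 18 had a shared site. The 86 respiratory chain and ATP synthase genes had members at ATPsynC, ATPsynbeta, COX5B and UQCR-14 (4.65%) and shared sites at 10. The 48 proteasome genes had members at Prosalpha6 and Rpn13 (4.17%), and the 13 glycolytic genes at Pgi and Pgk (15.4%). Some of these sites were nearest to the TSS of another protein-coding gene. Those counted for mRpL53, Polr2C and ATPsynbeta lay at -41 bp from the TSSs of CG33155, PolG2 and CG11076. Those counted for Prosalpha6 and Pgi lay at 79 bp from the TSS of Npc1a and at -170 bp from that of lin. No member lay at actin and tubulin, heat shock, histone, tRNA, yolk and chorion, odorant and gustatory receptor or cuticle protein genes, of which the lists hold 17, 24, 113, 295, 17, 119 and 94. Of these, only the actin and tubulin, heat shock, histone and tRNA lists had shared sites, at 3, 4, 1 and 4 genes. In the yolk and chorion, receptor and cuticle lists no gene had a kept region of any replicate within 500 bp of a TSS. In the histone list 1 gene had one.

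Among regulators of chromatin and the cell cycle 1 or 2 genes of each list had a member, beside 2.48% of all protein-coding genes. Members lay at 2 of 21 genes (9.52%) for architectural and insulator proteins, Clamp and pita, which both encode zinc finger proteins, and shared sites at 8. The site counted for pita was nearest to the TSS of another gene, Dcp-1, at -23 bp. Of 29 Polycomb and trithorax genes 1 (3.45%), pho, had a member, and 6 had shared sites. Of 32 cell cycle genes 2 (6.25%), CycB3 and dap, the inhibitor of Cyclin E/Cdk2, had members and 7 had shared sites. Among splicing and RNA-binding proteins Hrb87F and Rbp9 had a member, of 23 genes (8.70%), and 6 had a shared site. E(spl)m3-HLH, a basic helix-loop-helix repressor of the Notch pathway, had a member 200 bp from a kept summit of both others, 3 of the 11 genes of its complex having shared sites.

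Members at small RNA genes included 4 spliceosomal RNA genes. Of 289 small nuclear and nucleolar RNA genes 7 (2.42%) had a member, near the 2.48% of all protein-coding genes, and 8 had a shared site. Those with a member were snRNA:U1:95Ca, snRNA:U2:34ABb, snRNA:U4:38AB, snRNA:U6:96Aa, snoRNA:Me18S-G1358c, snoRNA:Me28S-A2113 and snoRNA:Psi18S-920. Spliceosomal RNAs are encoded by several near-identical copies, so that the assignment of reads to 1 copy is uncertain. At RpL15 and RpL10Ab the site that counts for a small nucleolar RNA was also the one that counts for the ribosomal protein gene. Of 260 microRNA genes 2, mir-4918 and mir-4949, had a member within 500 bp, as many as had a shared site, and the mir-4949 site also lay 13 bp from the TSS of ATPsynC.

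For developmental regulators, members within the gene were counted as well as those at a TSS. Between the start and end of the gene, a member lay in 487 of 13968 protein-coding genes (3.49%) and a shared site in 861 (6.16%). Of the 8 Hox genes, which specify segment identity, 5 held a member (Antp, Dfd, Scr, Ubx and lab) and 2 held a shared site. Of 36 early patterning genes, 6 held one (cad, hh, oc, opa, ptc and twi) and 4 a shared site, and none of the 36 had a member within 500 bp of a TSS. Mesoderm and muscle markers held members at 6 of 24 (Poxm, bin, bt, kirre, stumps and zfh1) and shared sites at 9, and neural markers at 3 of 23 (brat, gcm2 and pros) and shared sites at 3. Such genes are long: the median length was 30563 bp for the Hox list and 19700 bp for the mesoderm list, 4247 bp for early patterning genes and 2164 bp for all protein-coding genes. The counts were not adjusted for length.

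The 25 strongest members came mainly from introns and intergenic sequence. Of them 14 lay in introns, 8 in intergenic sequence and 3 at promoters, at ranks 178 to 886 and with signals down to 84.1. Of the 25, 17 were passing, 10 were in the list of replicate 1, 14 in that of replicate 2 and 9 in neither. Kept summits of another replicate lay within 300 bp of 5 of them, and 10 had none within 10 kb.

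The strongest, at rank 178 with a signal of 185.8, lay in an intron where the annotations of HmgD and HmgZ, which encode HMG-box chromatin proteins, overlap, at 2R positions 21703250 to 21703657. Replicates 1 and 2 kept summits 202 and 200 bp from it. The next was in an intron of kirre, which encodes an immunoglobulin-domain protein of muscle founder cells, at rank 279 in replicate 3. The kirre site was at rank 5136 in replicate 1, 4272 in replicate 2 and 1745 in the final list, so it was present in all lists but outside the kept rows of the other two. The site in pros, which encodes a homeodomain factor of neural differentiation, was at rank 288 in replicate 3 and in none of the other lists, that of the pooled alignments included. JIL-1, the gene of a histone H3 kinase, had a member at rank 361. It lay 151 bp from a kept summit of replicate 1 and 166 bp from one of replicate 2, and was at rank 537 of the final list.

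In vn, the gene of an epidermal growth factor receptor ligand, the site was at ranks 499, 15948 and 5194 in replicates 3, 1 and 2. The nyo site, in a gene for a zona pellucida domain protein, was at rank 505 in replicate 3, in neither other replicate list, and at 3360 in the final list. Regnase-1 had the strongest promoter member with no kept summit of another replicate within 1000 bp, at rank 678 in replicate 3 and 4200 in replicate 2, with none in replicate 1. An Antp intron held a member at ranks 766, 4281 and 9348 in replicates 3, 1 and 2. The lab intron, also of a Hox gene, held a member at rank 871 that was in neither other replicate list and not passing. Introns of CG31145, CG5953, CG6051, CG46456/lama, fax and l(2)k01209 held the other intronic members of the 25, at ranks 523 to 866. The intergenic ones were nearest to CG30114, RYBP, rpr, BobA, CG3349, CG3407, CG42693 and olf413. Of these genes rpr encodes an activator of programmed cell death and RYBP a Polycomb-associated protein. Regnase-1 and CG42354 were among the promoter members of the 25.

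Members gathered in places. Members linked at distances of up to 10 kb formed 40 groups of at least 3 and 6 groups of at least 5, and 35.7% of members had another within 10 kb. For shared sites 53.8% did, and for replicate 1 only and replicate 2 only sites 16.4% and 16.7%, but these sets differ in size. Some neighbouring member summits, among them a pair at ptc, lay closer together than the usual region width of 416 bp. Such summits counted as separate sites, which can raise the share with a neighbour and the group sizes. How much they did so was not tested. The group at lab had 6 members over 17144 bp, from rank 871 to 3352, 4 of them in introns. In that span replicate 3 listed 15 regions, replicate 1 listed 6 and replicate 2 listed 5, and neither of these kept any. The group by nht and esg, which encodes a Snail-family zinc finger factor, had 6 members, all intergenic, over 28422 bp. There replicate 3 listed 15 regions, replicate 1 listed 9 and replicate 2 listed 4, again with none kept. The others of at least 5 members were at Notum, at CG14662 and plh, at ptc, and around CG16815.

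The locus of CG16815 itself (FBgn0032491, 2L, 13229832 to 13230549, dm6) had 5 members within 20 kb, where 0.342 would lie at the mean density of members over the arms. No shared, replicate 1 only or replicate 2 only site lay there. The strongest was 52 bp upstream of the TSS of Ski6, an exosome subunit gene, at rank 1429 in replicate 3 and 1576 in the final list, with none in replicates 1 and 2. The others were 332 bp downstream of the TSS of Mabi at rank 2826, in coding exons of CG16812 at rank 3048 and of Prosalpha6T, a testis-specific proteasome subunit gene, at rank 3906, and at -677 bp from a coding TSS of kek4 at rank 3765. Of the 5, the kek4 one alone was listed by another replicate, at rank 24458 in replicate 1 and 6686 in replicate 2. From the first of these summits, that near kek4, to the last, replicate 3 listed 13 regions, replicate 1 none and replicate 2 listed 1. The replicate 1 summit listed for the kek4 member, within 150 bp of it, falls outside that span and is not in this count.

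By chromosome, members were relatively frequent on chromosome 4 and less frequent on the X than shared sites. Chromosome 4, a small chromosome rich in heterochromatin, held 15 members (1.33%, 0.747 to 2.19) and 6 shared sites (0.272%, 0.0997 to 0.590), a difference of 1.06 percentage points (0.447 to 1.93). Of the 587 kept regions of replicate 3 with a kept summit of 1 other replicate, it held 7 (1.19%, 0.481 to 2.44), a share near that of members. It held 1 replicate 1 only site and no replicate 2 only site. All 15 members stood below rank 1961. Among the best 1961 ranks there were none of 208 members, with an upper bound of 1.76%, and 5 of 1507 shared sites. The whole list of replicate 3 was 1.32% chromosome 4, close to the share among members, while the lists of replicates 1 and 2 were 0.317% and 0.591%. The chromosome 4 share of all regions thus moved with the library, and its part in the count of members was not tested.

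The 6 strongest chromosome 4 members were in an intron of sv, the Pax2 gene, at rank 2051, beside fuss at rank 2304, in an intron of ey, the Pax6 gene of eye development, at rank 2882, and at promoters of gw, pho and CG46466 at ranks 3054, 3154 and 3297. Of these, sv, ey and pho were in neither other replicate list. The gw site, at a gene of microRNA-mediated silencing, was at rank 4038 in replicate 2 and passing, and pho lay 173 bp from a kept summit of replicate 1.

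**Figure D4:**
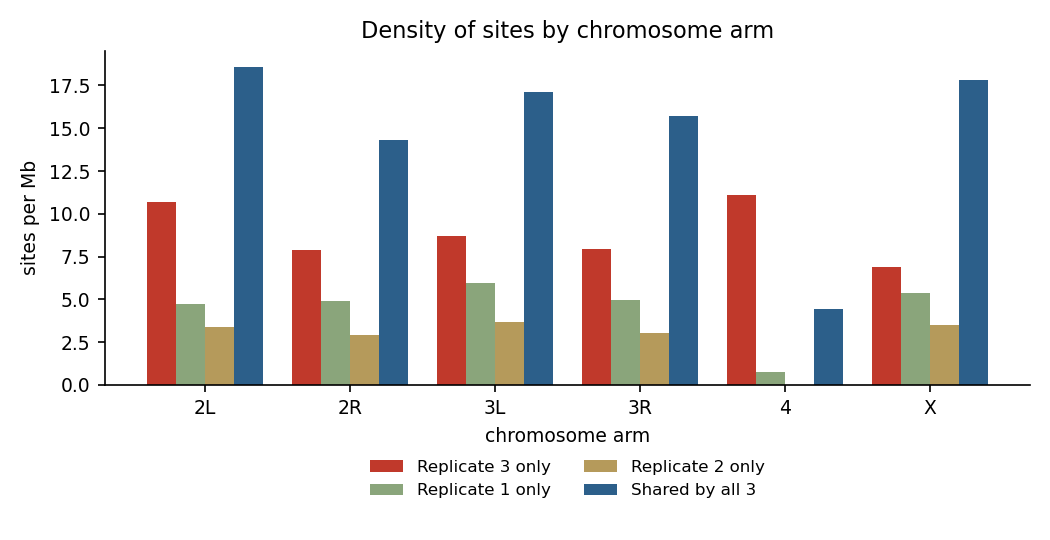
Sites per Mb (vertical axis) on each chromosome arm (horizontal axis) for replicate 3 only, replicate 1 only, replicate 2 only and shared sites. Replicate 3 only sites stand at 11.1 per Mb on chromosome 4 and 6.88 on the X, shared sites at 4.45 and 17.8.

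The X held 162 members (14.4%, 12.4 to 16.6) and 420 shared sites (19.0%, 17.4 to 20.7), which differ by -4.63 percentage points (-7.19 to -1.94). It held 18.3% of replicate 1 only and 18.8% of replicate 2 only sites. The whole list of replicate 3 was 14.7% X and its regions below the kept ranks 14.3%, both close to the share among members. For kept regions of replicate 3 with a kept summit of 1 other replicate the X share was 14.7%. Members found in both other whole lists were on the X in 19.1% of cases and those found in neither in 10.2%. The plot of densities shows members at 6.88 per Mb on the X, the lowest of the arms with members, and at 7.91 to 10.7 per Mb on 2L, 2R, 3L and 3R. The Y held no member, shared, replicate 1 only or replicate 2 only site.

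The DNA under members was less depleted of G and C than that under shared sites. Within 50 bp of the summit the median G+C content was 36.6% for members (quartiles 29.7 and 44.6) and 30.7% for shared sites (25.7 and 36.6). At 450 bp to either side it was 42.6% for members and 44.6% for shared sites, so both kinds of summit lay in a local dip and that of members was shallower. Replicate 1 only sites had a median of 35.6%, replicate 2 only sites 32.7%, and the regions of replicate 3 below the kept ranks 42.6% at summit and 41.6% at the flanks. The gap was present at promoters, with 36.6% for members and 29.7% for shared sites, and in intergenic sequence it was 33.7% and 31.7%. It was present at both ends of the ranking: among the best 1961 ranks the medians were 35.6% and 29.7%, and below them 36.6% and 32.7%.

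**Figure D5:**
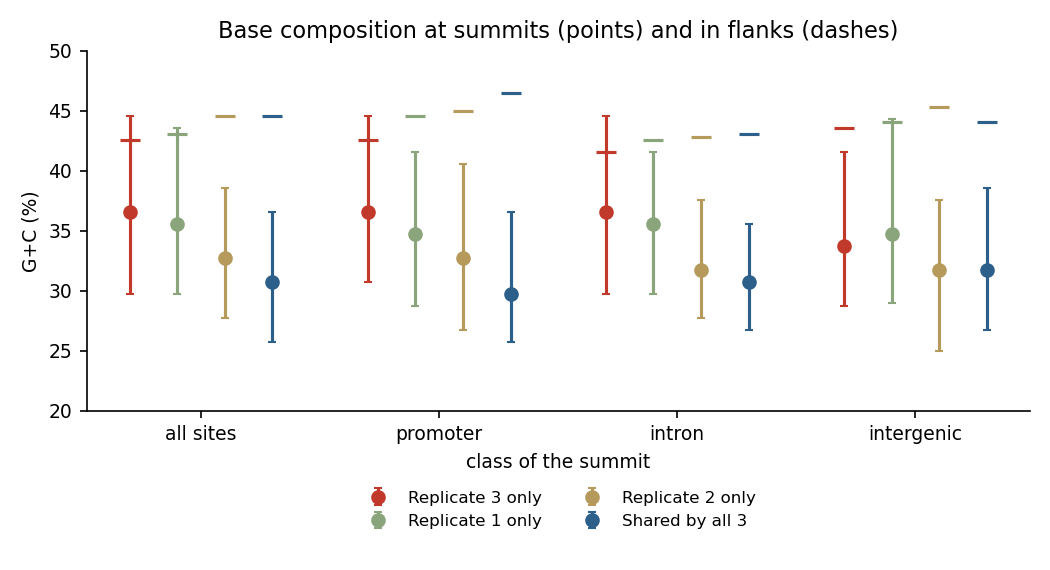
Median G+C content (vertical axis, percent) within 50 bp of the summit, with lines from the lower to the upper quartile, and median in windows centred 450 bp to either side (dashes), by class of summit (horizontal axis) for replicate 3 only, replicate 1 only, replicate 2 only and shared sites. Over all sites the summit medians are 36.6% for replicate 3 only and 30.7% for shared sites, against flanks of 42.6% and 44.6%.

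Of the motifs, TATAAA and TAATTA differed most between the sets in percentage points. TATAAA, the core of the TATA box, was within 50 bp of 17.3% of member summits (15.2 to 19.7) and 26.2% of shared summits (24.4 to 28.1), and in 247 of 2252 and 447 of 4418 (10.1%) of the flanking windows of the same length. TAATTA, a core bound by many homeodomain proteins, was at 8.17% of members and 11.6% of shared sites, with flanks at 7.10% and 5.52%. Both were less frequent at members than at shared sites, and the exchanged sets also lay below shared sites. TATAAA was at 117 of 690 replicate 1 only and 87 of 436 replicate 2 only sites. TAATTA was at 8.41% of replicate 1 only and 10.6% of replicate 2 only sites, the latter with an interval (7.83 to 13.8) that holds the shared share. The lower shares were thus not particular to replicate 3 only sites. The DRE was at 17 members (1.51%, 0.882 to 2.41) and 19 shared sites (0.860%, 0.519 to 1.34), with overlapping intervals, and at 0.311% and 0.226% of flanks. It was at 0.290% of replicate 1 only and 1.61% of replicate 2 only sites. It contains CGATA, a core bound by the insulator protein BEAF-32, found at 13.9% of members and 12.9% of shared sites.

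AAAAAAA, on either strand a run of A or T, was at 11.9% of members and 14.0% of shared sites, with flanks at 10.2% and 8.60%. GATAAG, the GATA factor core, was at 6.57% of members and 5.21% of shared sites, with flanks at 4.80% and 4.69%. CACACACA was at 1.60% of members and 0.724% of shared sites, with flanks at 3.77% and 4.16%. GAGAGAG, bound by the GAGA factor, was at 1.24% and 0.543%, with flanks at 1.64% and 3.49%. CAGGTAG, bound by the early activator Zelda, was at 3 members (0.266%) and 5 shared sites (0.226%).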

How the data were processed

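ChIP-seq of GFP-tagged CG16815 was deposited as lists of called regions (narrowPeak format, dm6 and dm3) for 3 biological replicates, their pool and a final list. Per the README deposited beside them, each relaxed list holds peaks and background. The signal value and the −log10 q-value of each region are the authors' own, as deposited. Aligner, peak caller and threshold: not given in the sources used here. Signal served only to rank regions within a list. Read counts were not analysed here, so depth is unknown.

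The members and the gene and motif lists were chosen with earlier results of these data known. The rule keeps the best 3922 rows per replicate and a summit distance of 150 bp. By Ensembl release 115 (BDGP 6.54), a summit within 500 bp of a TSS was a promoter summit, and any other took the first that applied of 5' UTR, coding exon, 3' UTR, further exon, intron and intergenic. Sequence came from RefSeq Release 6, which has dm6 coordinates. The 14 motifs were searched on both strands in 101 bp windows at summits and centred 450 bp to each side. Python 3.11.15, numpy 2.4.6, pandas 2.3.3, scipy 1.17.1, statsmodels 0.14.6 and matplotlib 3.10.9 were used, and set and class assignment was tested on simulated data. No test was run, since all members come from 1 library.

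Genes and sites named were the 25 strongest members, up to 4 members for each gene list, all within 20 kb of CG16815, and up to 6 of chromosome 4. Genes named beyond these, such as all ribosomal protein, Hox and patterning genes counted, the groups of sites and the strongest in coding exons, were chosen after their values were seen. Sites were named by a protein-coding TSS within 500 bp, else by the gene that holds them, else by position. Alternatives were other distances, numbers of rows, windows and lists, and leaving out replicate 1 or 2. Some genes are not reported here.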

Additional observations from a re-analysis of the deposited data

How the results depend on the processing

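Replicate 3 defines the sites and cannot be left out, so the alternatives left out replicate 1 or 2. Leaving out 1 of these gave 1300 to 1539 sites, a promoter share of 26.6% to 32.9%, an intron share of 34.2% to 37.8%, an intergenic share of 27.1% to 29.1%, a coding exon share of 2.53% to 3.00%, chromosome 4 shares of 1.30% to 1.31%, X shares of 14.2% to 14.6%, a median G+C of 35.6% in both cases, and 27 to 43 ribosomal protein genes, with 43 without replicate 2. Keeping 2000 rows gave 572 sites, of which 33.6% were intergenic, 0.350% in coding exons and 0.350% on chromosome 4, with a median G+C of 32.7%. Keeping 6000 rows gave 2192 sites, 23.0% at promoters, 8.94% in coding exons and 12.3% on the X, with a median G+C of 40.6%. Against all rows of the other lists, 383 sites were left, 22.5% intergenic, 7.83% in coding exons, 2.35% on chromosome 4 and 10.2% on the X, with a median G+C of 40.6% and 7 ribosomal protein genes. Among the best 1961 ranks there were 208 sites, 22.6% at promoters, 41.8% in introns, 0.481% in coding exons and 0% on chromosome 4, with 12 ribosomal protein genes. Within 75 bp as the shared distance, the promoter share was 31.4%. With promoter windows of 250 bp and 1000 bp it was 18.2% and 35.3%, the intron share 40.3% and 33.7% and the intergenic share 32.1% and 26.3%, and coding exons held 2.22% at 1000 bp. With TSSs of protein-coding genes alone, promoters held 23.4% and intergenic sequence 33.5%. Windows of 25 bp and 150 bp gave a median G+C of 35.3% and 38.4%. The cause of these shifts was not tested, except that a window or row limit changes what is counted by construction.

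Chosen after the data were seen, the differences between members and shared sites were taken within ranks. Among the best 1961 ranks they were -27.3 percentage points for promoters, 9.44 for introns and 0.149 for coding exons, and that for chromosome 4 reversed to -0.332. Below them, that for the X was -7.23. Members with no kept summit of another replicate within 1000 bp (948) kept each value within its interval, or within 1.5 times for counts. Unknown depth limits all of these values, since a region missing from a list may be one that library could not show.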
